A study of Mus musculus with 4 samples.

Results

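The 6 genes described here were followed by symbol across the liver lymphocytes of mice: *Ifng*, which encodes the cytokine interferon-γ (IFN-γ), and 5 genes that direct its production. They were 6 of the 33696 genes in both deposited count matrices, and each symbol named 1 row. *Tbx21* encodes T-bet and *Eomes* encodes Eomesodermin, both T-box transcription factors. *Il12rb1* and *Il12rb2* encode the 2 chains of the interleukin-12 (IL-12) receptor, and *Stat4* encodes the signal transducer that this receptor activates. The levels were read in γδ T cell subsets, NK-like cells, ILC1-like cells, NKT-like cells and CD4 and CD8 T cells, which were gated by the counts of other marker genes.

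All mice carried *Stab2-CrexERT2* and *R26-LSL-tdT*, received tamoxifen at embryonic day 9.5 and were 2 months old when CD45+ cells were taken from the liver. In these mice the *Stab2* promoter drives the inducible Cre, so cells that descend from endothelium expressing *Stab2* at that time carry tdTomato, and liver sinusoidal endothelial cells express *Stab2* as well. Cells were sorted as tdTomato+ or tdTomato-, and each sort gave 1 gene expression library and 1 γδ T cell receptor library, so both sorts share the genotype, the tamoxifen and the age. The labels put the tdTomato+ libraries in batch 1 and the tdTomato- libraries in batch 2, so sort and batch cannot be told apart, and the cells were not traced to single animals.

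IFN-γ activates macrophages, raises antigen presentation and restrains growth of infected and malignant cells, and in the liver it is made largely by NK cells, group 1 innate lymphoid cells (ILC1), NKT cells and T cells. Myeloid cells release IL-12, whose receptor signals through JAK2, TYK2 and STAT4, and STAT4 together with T-bet opens and activates the *Ifng* locus. T-bet sets the type 1 program in most of these cells, while Eomesodermin is needed by conventional NK cells and by CD8 memory cells and is absent from most liver ILC1. The β1 chain of the IL-12 receptor is shared with the receptor for IL-23, in which it pairs with the product of *Il23r*. The IL-23 receptor lacks the β2 chain. Some γδ T cells make IFN-γ, and others make interleukin-17.

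In the GRCm38 annotation (GENCODE M21), *Ifng* (ENSMUSG00000055170) spans 4847 bases of chromosome 10 (chr10:118441046-118445892, plus strand). *Tbx21* lies on the minus strand of chromosome 11 (chr11:97098071-97115331) and *Eomes* on the plus strand of chromosome 9 (chr9:118478212-118486132). *Il12rb1* lies on the plus strand of chromosome 8 (chr8:70808449-70821424), *Il12rb2* on the minus strand of chromosome 6 (chr6:67291318-67376188) and *Stat4* on the plus strand of chromosome 1 (chr1:51987148-52107189). All 6 are annotated as protein coding, and the values below sum every transcript of a gene. The 250 bases before the RefSeq start were searched on both strands for TTCNNNGAA, the palindromic core that STAT factors bind, for AGGTGT, a T-box core, and for TATAAA. Promoter entries were matched for 5 of the 6 genes, *Il12rb1* having none. The STAT core was found in *Ifng* and *Il12rb2*, and these windows (GRCm38.p6, RefSeq, 5′ to 3′) are printed with the matches in capitals.
Ifng, chr10:118440796-118441045, plus strand: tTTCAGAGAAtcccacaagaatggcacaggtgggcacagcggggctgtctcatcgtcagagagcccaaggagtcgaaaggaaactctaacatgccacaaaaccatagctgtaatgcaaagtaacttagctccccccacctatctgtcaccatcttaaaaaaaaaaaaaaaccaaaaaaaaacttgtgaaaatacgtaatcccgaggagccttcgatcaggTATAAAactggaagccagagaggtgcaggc
Il12rb2, chr6:67376189-67376438, minus strand: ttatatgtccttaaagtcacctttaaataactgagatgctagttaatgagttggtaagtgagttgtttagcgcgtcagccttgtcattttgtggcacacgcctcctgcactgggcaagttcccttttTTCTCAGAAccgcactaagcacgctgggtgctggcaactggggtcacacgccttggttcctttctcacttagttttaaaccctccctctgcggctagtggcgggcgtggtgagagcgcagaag
In *Ifng* the STAT core began at position -249, and TATAAA began at position -30 on the strand of the gene. In *Il12rb2* the STAT core began at position -123. The STAT core is palindromic, so its matches have no strand of their own. Of 32851 RefSeq promoter windows of this length, 7.02% held the STAT core, 12.4% TATAAA and 11.8% AGGTGT, which none of the matched windows held. A match describes the letters of the window and is not a shown binding site.

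The tdTomato+ library held 17957 barcodes with 203366009 UMIs (unique molecular identifiers, each marking 1 captured RNA molecule), and the tdTomato- library held 18444 barcodes with 156771260 UMIs. The median barcode had 8955 UMIs in the tdTomato+ and 7128 UMIs in the tdTomato- library. Between them the libraries shared 84 barcodes. In the tdTomato+ library 5979 barcodes were endothelial and a further 3845 carried T cell and endothelial RNA together, against 19 and 72 in the tdTomato- library. Barcodes with over 1000 CPM (counts scaled to a total of 1000000) of a list of 10 endothelial genes were therefore left out of the lymphocyte classes. The endothelial list still summed to 96.3 CPM in γδ T cells of the tdTomato+ library and to 22.4 CPM in those of the tdTomato- library, and its part in the differences between the libraries was not tested.

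The gates gave 107 γδ T cells in the tdTomato+ library and 3616 in the tdTomato- library. Cells with at least 3 counts of *Ncr1* and *Klre1* together, genes that mark a cytotoxic γδ subset, that passed no other subset gate made up 33.6% (36 cells) of the tdTomato+ and 59.4% (2148 cells) of the tdTomato- γδ T cells. There were 7 *Gzmk* and 7 proliferating γδ T cells in the tdTomato+ library, and 161 and 98 in the tdTomato- library. There were 54 and 42 NK-like cells, 168 and 24 ILC1-like cells, 248 and 345 CD4 T cells and 491 and 782 CD8 T cells in the tdTomato+ and the tdTomato- library. The NKT-like gate asked for a count of *Trav11* or *Trav11d*, the invariant receptor segment, and held only 9 and 16 cells, so αβ T cells with at least 2 counts of *Zbtb16*, which encodes the NKT cell regulator PLZF, were read as well (206 and 271 cells).

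Some markers that no gate had used were read as a check of the names. *Blk*, a kinase gene read here as a marker of γδ against CD8 T cells only, stood at 202 and 130 CPM in γδ T cells. It stood at 0 and 2.51 CPM in CD8 T cells of the tdTomato+ and tdTomato- libraries. *Cd40lg*, which helper T cells express, stood at 175 and 209 CPM in CD4 T cells against 4.03 and 3.91 CPM in CD8 T cells. *Gzma* stood at 9417 and 10651 CPM in NK-like cells against 400.4 and 257.5 CPM in ILC1-like cells of the tdTomato+ and tdTomato- libraries. The NK-like cells had 209 and 241 CPM of *Itga2*, which encodes the NK marker CD49b and was in the NK list, and the ILC1-like cells had 14.6 and 20.6 CPM. ILC1-like cells also held 328 and 180 CPM of the T cell receptor gene *Trbc2*, against 100.2 and 40.2 CPM in NK-like cells. *Klrb1c*, which encodes NK1.1, was at 0 in the NKT-like cells of both libraries, which goes against the name, and it rests on the receptor segment and on *Zbtb16* at 307 and 262 CPM. B cells, the class used to read background, had *Ifng* at 5.56 CPM in the tdTomato+ and 1.30 CPM in the tdTomato- library.

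*Ifng* was abundant in the cytotoxic and tissue-resident classes and lower in CD4 and CD8 T cells. All levels are counts summed over the cells of a class in CPM of the UMIs of that class, with exact Poisson 95% intervals, which cover counting error only. γδ *Ncr1* cells had 958 CPM of *Ifng* (851 to 1075) if tdTomato+, and 759 CPM (746 to 772) if tdTomato-. The 7 tdTomato+ *Gzmk* cells had 1222 CPM and the 161 tdTomato- *Gzmk* cells 1027 CPM, the highest of the γδ subsets in each library. The log2 ratio of *Gzmk* over *Ncr1* cells was 0.35 (-0.05 to 0.74) if tdTomato+, and 0.44 (0.35 to 0.52) if tdTomato-. The proliferating cells had 541 and 295 CPM, and all γδ T cells together had 577 and 616 CPM.

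Among the innate cells the order of *Ifng* was not the same in both libraries. ILC1-like cells had 831 CPM in the tdTomato+ and 464 CPM in the tdTomato- library, and NK-like cells had 512 and 763 CPM. NK-like cells were thus lower than ILC1-like cells in the tdTomato+ library (log2 ratio -0.70, -0.91 to -0.50) and higher in the tdTomato- library (0.72, 0.36 to 1.09), where only 24 ILC1-like cells were gated.

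NKT-like cells had 475 and 576 CPM of *Ifng* in the tdTomato+ and tdTomato- libraries, and the larger *Zbtb16* αβ class had 454 and 567 CPM. CD8 T cells had 357 and 256 CPM. CD4 T cells had 249.4 and 348.8 CPM, and a single tdTomato- cell held 307 of their 1153 counts. Without the highest cell of each library the CD4 levels were 232.8 and 258 CPM, closer to each other than with those cells.

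*Ifng* counts were uneven between cells of 1 class. In γδ *Ncr1* cells 83.3% of tdTomato+ and 80.1% of tdTomato- cells held at least 1 count, the highest cells held 49 and 96 counts, and the variance of the counts was 13.9 and 14.6 times their mean. The B cell shares were 2.32% and 0.872%, at medians of 6262 and 5762 UMIs against 8202 and 7656 UMIs in γδ *Ncr1* cells. Thinned to 2000 UMIs, the γδ *Ncr1* shares were 61.2% and 52.8%. Among CD4 T cells 28.6% of tdTomato+ and 32.2% of tdTomato- cells held a count, and the 25 and 35 cells with the most counts held 75.8% and 80.7% of all their *Ifng* counts. The Poisson intervals take no account of this unevenness.

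**Figure D1:**
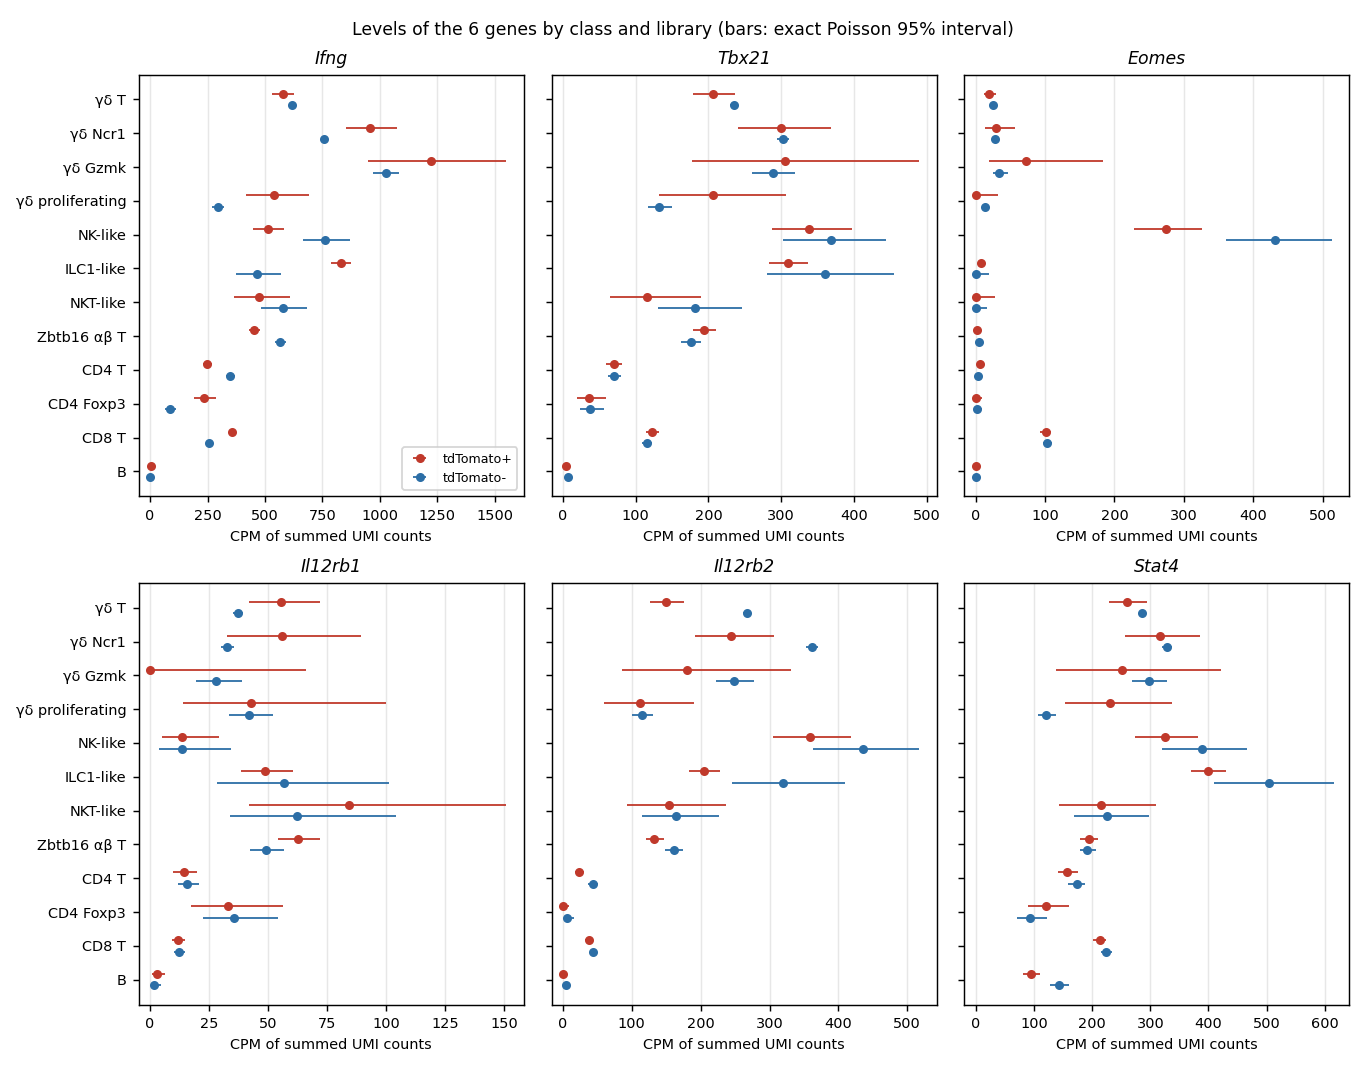
Level of each of the 6 genes in 12 classes (rows), in CPM of summed UMI counts, for the tdTomato+ library (red) and the tdTomato- library (blue), with bars for the exact Poisson 95% interval. *Eomes* stands out in NK-like cells (274 and 432 CPM), *Il12rb2* in NK-like and γδ *Ncr1* cells, and *Ifng* is near 0 in B cells.

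*Tbx21* was highest in NK-like, ILC1-like, γδ *Ncr1* and γδ *Gzmk* cells. It stood at 338 and 368 CPM in NK-like cells, 309 and 361 CPM in ILC1-like cells and 299.6 and 302 CPM in γδ *Ncr1* cells of the tdTomato+ and tdTomato- libraries. These neighbours in the order were close, and the log2 ratio of γδ *Ncr1* over NK-like cells was -0.18 (-0.57 to 0.21) among tdTomato+ cells, against -0.29 (-0.56 to 0.00) among tdTomato- cells. γδ *Gzmk* cells had 306 and 289 CPM, and proliferating γδ T cells had 206 and 133 CPM. *Zbtb16* αβ T cells had 194 and 176 CPM, the 9 and 16 NKT-like cells 115 CPM (64.4 to 189.6) and 182 CPM (130.5 to 247), CD8 T cells 123 and 116 CPM and CD4 T cells 70.0 and 70.5 CPM. *Foxp3* CD4 T cells, which are regulatory T cells, had 35.4 and 37.3 CPM. Even these stood above B cells, which had 3.89 and 7.39 CPM.

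*Eomes* followed another order. tdTomato+ NK-like cells had 274 CPM (228 to 327), and tdTomato- NK-like cells had 432 CPM (361 to 513). The ILC1-like gate gave 7.28 CPM in the tdTomato+ library, with 12 counts in 3 of 168 cells, and 0 counts in 24 tdTomato- cells. CD8 T cells came next after NK-like cells, with 100.7 and 103.3 CPM. CD4 T cells had 6.20 and 3.63 CPM and *Zbtb16* αβ T cells 2.55 and 4.36 CPM.

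All γδ T cells together had 18.9 and 25.6 CPM of *Eomes*, and γδ *Ncr1* cells had 29.6 and 28.0 CPM. The tdTomato+ γδ *Ncr1* value came from 9 counts in 2 of 36 cells, 7 of them in 1 cell (interval 13.55 to 56.25 CPM). The γδ *Gzmk* cells held 4 counts in 2 of 7 tdTomato+ cells, too few to order the subsets there, and 34.2 CPM (24.9 to 45.9) over 161 tdTomato- cells, where the log2 ratio of *Gzmk* over *Ncr1* cells was 0.29 (-0.19 to 0.74). Proliferating γδ T cells held 0 counts in the tdTomato+ library and 13.3 CPM in the tdTomato- library.

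Read cell by cell, 55.6% of tdTomato+ and 61.9% of tdTomato- NK-like cells held counts of both T-box genes, 27.8% and 16.7% of *Tbx21* alone, and the others mostly of *Eomes* alone. ILC1-like cells were mostly *Tbx21* alone (85.7% and 91.7%), with both genes in 3 of 168 and 0 of 24 cells. For 0 of 24 the exact binomial upper limit is 14.25% of cells with a UMI of *Eomes*, which is no limit on the cells that express it. γδ *Ncr1* cells were also mostly *Tbx21* alone (80.6% and 73.7%), with both genes in 2 of 36 and 236 of 2148 cells. Their *Eomes* level was 4.07-fold that of ILC1-like cells in the tdTomato+ library (log2 2.03, 0.60 to 3.40), from 9 and 12 counts. In the tdTomato- library it was 28.0 CPM against 0 counts, with 0.555 as the exact lower limit of the log2 ratio. CD8 T cells were spread over the 4 states, with *Tbx21* alone in 27.9% and 22.1%, both genes in 25.9% and 25.1%, *Eomes* alone in 96 of 491 and 189 of 782 cells and neither in 26.7% and 28.6%.

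The *Ifng* level was also read within these states. In CD4 T cells of the tdTomato+ library those with *Tbx21* alone had 544 CPM of *Ifng* and those with neither gene 62.5 CPM, against 871 and 78.0 CPM in the tdTomato- library, where the single cell with 307 counts was not left out. The median depths of these states were 9569 and 7100 UMIs in the tdTomato+ and 8204 and 7568 UMIs in the tdTomato- library. In γδ *Ncr1* cells it was 1066 CPM with *Tbx21* alone and 654 CPM in the 5 cells with neither in the tdTomato+ library, and 743 CPM and 761 CPM in the tdTomato- library. CD8 T cells with *Tbx21* alone had 538 CPM of *Ifng* in the tdTomato+ and 564 CPM in the tdTomato- library. Those with both genes had 402.5 and 243.7 CPM, those with *Eomes* alone 221 and 176 CPM and those with neither 142 and 103 CPM. The median depths of these 4 states ran between 9506 and 13051 UMIs in the tdTomato+ and between 8682 and 13036 UMIs in the tdTomato- library. In NK-like cells the values stood in another order, but the intervals for *Eomes* alone and *Tbx21* alone overlapped in both libraries. The 7 tdTomato+ and 9 tdTomato- NK-like cells with *Eomes* alone had 863 CPM (636 to 1144) and 1033 CPM (785 to 1336) of *Ifng*. Those with *Tbx21* alone had 642 CPM (503 to 808) and 699 CPM (475 to 992). Those with both genes had 399 and 701 CPM, and 2 tdTomato+ cells with neither 167.5 CPM. In tdTomato- γδ *Gzmk* cells it was 950 CPM with *Tbx21* alone and 1372 CPM in the 24 cells with neither. A cell without a count may still hold the RNA at this depth.

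**Figure D2:**
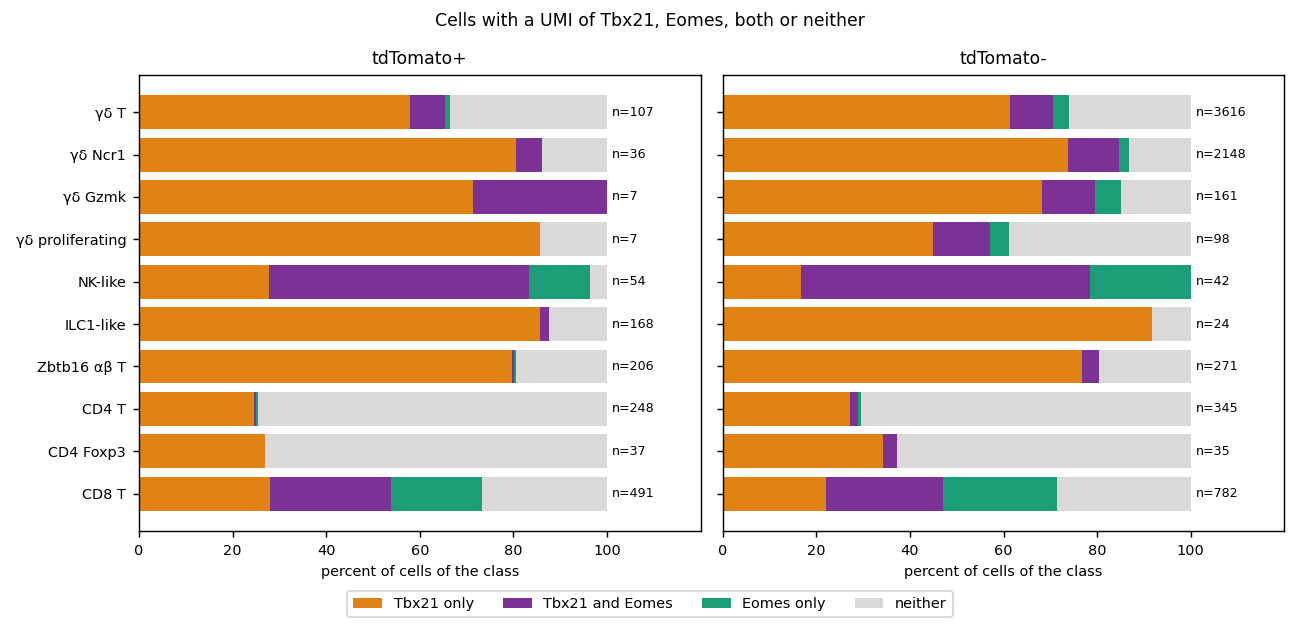
Percent of the cells of each class (rows) with a UMI of *Tbx21* only (orange), of both *Tbx21* and *Eomes* (purple), of *Eomes* only (green) or of neither (grey), in the tdTomato+ library (left) and the tdTomato- library (right), with the number of cells beside each bar. Cells with both genes make up most of the NK-like class (55.6% and 61.9%) and few of the ILC1-like class (1.79% and 0%).

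*Il12rb1* was low in most classes, and its order differed from that of the other genes. The 9 and 16 NKT-like cells had 84.3 and 62.1 CPM, from only 11 and 14 counts. The 11 tdTomato+ counts lay in 2 cells (interval 42.1 to 150.9 CPM). *Zbtb16* αβ T cells had 62.5 and 49.2 CPM and ILC1-like cells 48.5 and 56.7 CPM. NK-like cells had only 13.4 CPM in each library, from 6 and 4 counts. γδ T cells had 55.6 and 37.1 CPM, with γδ *Ncr1* cells at 56.0 and 32.6 CPM, and no count was seen in the 7 tdTomato+ γδ *Gzmk* cells, against 28.0 CPM over the 161 tdTomato- ones. CD4 T cells had 14.2 and 15.7 CPM and CD8 T cells 11.8 and 12.3 CPM, whereas the *Foxp3* CD4 T cells stood at 32.9 and 35.7 CPM.

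*Il12rb2*, the chain that the IL-23 receptor lacks, followed a different order. It was highest in NK-like cells (358 and 435 CPM) and γδ *Ncr1* cells (244 and 362 CPM) of the tdTomato+ and tdTomato- libraries, and ILC1-like cells had 204 and 319 CPM. γδ *Gzmk* cells had 179.7 and 248.9 CPM and proliferating γδ T cells 111.5 and 114.8 CPM. *Zbtb16* αβ T cells, which had both chains, stood at 133 and 161 CPM. CD8 T cells had 37.4 and 43.9 CPM, CD4 T cells 23.9 and 43.3 CPM and *Foxp3* CD4 T cells 0 and 4 counts.

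*Stat4* was the most evenly spread of the 6 genes. Its lowest level among the lymphocyte classes was 94.1 CPM, in *Foxp3* CD4 T cells of the tdTomato- library, and its highest was 505 CPM (410 to 615), in ILC1-like cells of the same library. The tdTomato+ ILC1-like cells had 399 CPM, and NK-like cells had 325 and 388 CPM. γδ T cells had 260.2 and 286 CPM, CD8 T cells 213 and 225 CPM and CD4 T cells 158 and 173 CPM. B cells held it too (94.5 and 144 CPM, with a count in 41.7% and 53.5% of cells), whereas endothelial cells of the tdTomato+ library had 1.11 CPM, so B cells gave no background value for this gene.

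Within each library, classes were compared gene by gene. A gene was called where 1 class was at 10 CPM or more, the ratio was at least 2-fold and its exact interval excluded no change. Between NK-like and ILC1-like cells 2 of 6 members were called, *Eomes* and *Il12rb1* in both libraries. *Eomes* was 37.6-fold higher in NK-like cells of the tdTomato+ library (log2 ratio 5.23, 4.38 to 6.22) and 27.9-fold higher in the tdTomato- library against a floor of 3 counts over the ILC1-like cells, which held none, with 4.49 as the exact lower limit of the log2 ratio. *Il12rb1* was 3.63-fold and 4.23-fold higher in ILC1-like cells. The share of all tested genes called was 11.9% and 11.1%. For *Tbx21* the log2 ratio was 0.13 (-0.14 to 0.40) and 0.03 (-0.42 to 0.48). *Il12rb2* was below the 2-fold threshold (0.81, 0.53 to 1.08 and 0.45, 0.00 to 0.91), as was *Stat4* (-0.30, -0.57 to -0.04 and -0.38, -0.78 to 0.02).

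The γδ *Ncr1* cells and the NK-like cells shared their marker genes *Ncr1* and *Klre1* by the gates, and among the members *Eomes* set them apart. It was lower in γδ *Ncr1* cells by 3.21 on the log2 scale (-4.37 to -2.24) in the tdTomato+ library and by 3.95 (-4.23 to -3.65) in the tdTomato- library. The tdTomato+ ratio rests on 9 counts in 2 of 36 γδ *Ncr1* cells. *Il12rb1* was higher in γδ *Ncr1* cells in the tdTomato+ library (56.0 against 13.4 CPM) and was not called in the tdTomato- library (32.6 against 13.4 CPM, log2 1.28, -0.08 to 3.16). The background shares were 11.3% and 14.3% of tested genes. For *Ifng* the γδ *Ncr1* and NK-like levels were 958 and 512 CPM among tdTomato+ cells, and 759 and 763 CPM among tdTomato- cells.

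γδ T cells as a whole differed from CD8 T cells in both receptor chains and in *Eomes*. *Il12rb1* was 4.73-fold and *Il12rb2* 4.01-fold higher in γδ T cells of the tdTomato+ library, and 3.01-fold and 6.09-fold higher in those of the tdTomato- library. *Eomes* was 5.33-fold and 4.04-fold higher in the CD8 T cells of the tdTomato+ and tdTomato- libraries. *Ifng* and *Tbx21* were higher in γδ T cells by 0.69 (0.56 to 0.83) and 0.75 (0.52 to 0.97) on the log2 scale in the tdTomato+ library, below the 2-fold threshold, and by 1.27 (1.21 to 1.33) and 1.03 (0.94 to 1.12) in the tdTomato- library, where both were called. That made 3 of 6 members called among tdTomato+ cells, where 12.6% of all tested genes were called, and 5 of 6 among tdTomato- cells, where 13.6% were.

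Between CD8 and CD4 T cells *Eomes* was the member called in both libraries, against 6.77% and 5.68% of all tested genes. It was 16.2-fold higher in CD8 T cells of the tdTomato+ library (log2 4.02, 3.26 to 4.90) and 28.5-fold higher in those of the tdTomato- library (4.83, 4.02 to 5.79). The *Tbx21* ratio was 0.81 (0.56 to 1.07) and 0.71 (0.51 to 0.92). The *Ifng* ratio was 0.52 (0.38 to 0.65) in the tdTomato+ and -0.45 (-0.55 to -0.35) in the tdTomato- library, whose CD4 counts held the cell with 307.

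**Figure D3:**
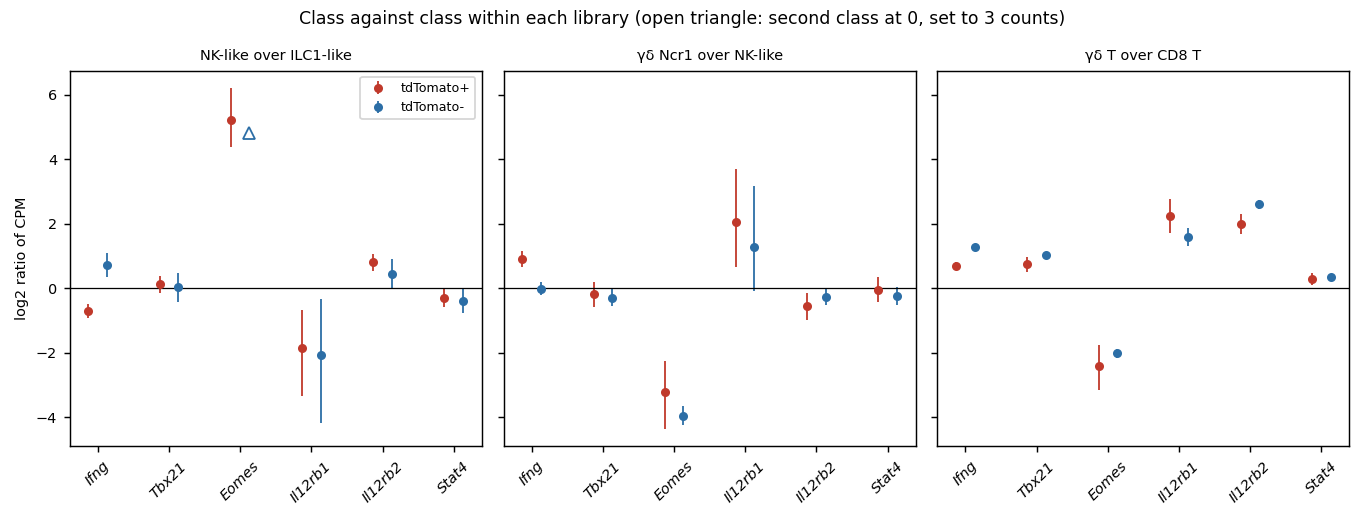
Log2 ratio of CPM between classes for each of the 6 genes, for NK-like over ILC1-like, γδ *Ncr1* over NK-like and γδ T over CD8 T cells, in the tdTomato+ library (red) and the tdTomato- library (blue), with exact conditional 95% intervals and an open triangle where the second class held no count and was set to 3 counts. *Eomes* lies near 5 in the first panel and below 0 in the others, and *Il12rb1* and *Il12rb2* lie above 0 in the γδ T panel in both libraries.

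Between the sorts no member passed the 2-fold threshold in any of the 5 main classes. In γδ T cells 0 of 6 members were called, and 4.36% of 8668 tested genes were. The share of all genes called was 0.774% in CD8 T cells, 2.09% in CD4 T cells, 4.22% in NK-like cells and 7.70% in ILC1-like cells, and again no member was called, with 5 of the 6 at a testable level in CD4 and in ILC1-like cells. Outside these classes, *Ifng* in *Foxp3* CD4 T cells was above 2-fold, at 235 CPM in 37 tdTomato+ cells against 87.6 CPM in 35 tdTomato- cells (log2 1.43, 0.93 to 1.94). A single tdTomato+ cell held 36 of their 93 counts and a single tdTomato- cell 17 of 54, and without these the levels were 146 and 63.7 CPM. With 1 library per sort there was no test of these ratios, and their intervals cover counting error only.

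*Il12rb2* was the member with the most regular direction. It was lower in the tdTomato+ library in γδ T cells, at 150 against 268 CPM (log2 -0.84, -1.08 to -0.60), in γδ *Ncr1* cells, at 244 against 362 CPM (-0.57, -0.92 to -0.24), and in ILC1-like cells, at 204 against 319 CPM (-0.64, -1.04 to -0.23). In CD4 T cells it stood at 23.9 against 43.3 CPM (-0.86, -1.33 to -0.39) and in *Zbtb16* αβ T cells at 133 against 161 CPM (-0.28, -0.46 to -0.10). The intervals for NK-like and CD8 T cells (-0.62 to 0.06 and -0.47 to 0.00) included no difference.

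*Ifng* in all γδ T cells was at 577 CPM if tdTomato+ and 616 CPM if tdTomato-, an interval that included no difference (-0.09, -0.22 to 0.02), and the ratio was -0.20 (-0.33 to -0.08) without the highest cell of each library. Within the *Ncr1* subset *Ifng* was higher in the tdTomato+ library (0.34, 0.16 to 0.50), and without the highest cell of each library it was 820 and 753 CPM. *Ifng* was also higher in tdTomato+ ILC1-like cells (0.84, 0.53 to 1.17) and CD8 T cells (0.48, 0.40 to 0.56). *Ifng* was lower in tdTomato+ NK-like cells (-0.58, -0.85 to -0.30), *Zbtb16* αβ T cells (-0.32, -0.42 to -0.22) and CD4 T cells (-0.48, -0.63 to -0.34). The CD4 value turned on the single tdTomato- cell named above, and without the highest cell of each library it was -0.15 (-0.31 to 0.01). With doubled marker minimums, which left 58 and 92 CD4 T cells, it turned to 0.71. The endothelial list summed to 149 and 45.1 CPM in CD4 T cells, 90.2 and 41.1 CPM in CD8 T cells, 51.2 and 3.35 CPM in NK-like cells and 78.3 and 20.6 CPM in ILC1-like cells of the tdTomato+ and tdTomato- libraries, and its part in these ratios was not tested.

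*Il12rb1* in all γδ T cells was higher in the tdTomato+ library, at 55.6 against 37.1 CPM (0.59, 0.17 to 0.97). Within the *Ncr1* subset it was at 56.0 against 32.6 CPM, from 17 tdTomato+ counts, and the interval included no difference (0.78, -0.01 to 1.47). The part of the unlike subset shares in the ratio over all γδ T cells was not tested. Without the limit on endothelial RNA the γδ T cell ratio turned to -0.29. *Eomes* in NK-like cells was lower in the tdTomato+ library (-0.66, -1.03 to -0.29), and *Tbx21* and *Stat4* had intervals that included no difference in γδ T, NK-like, CD4 and CD8 T cells. In ILC1-like cells *Stat4* was at 399 against 505 CPM (-0.34, -0.65 to -0.02).

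**Figure D4:**
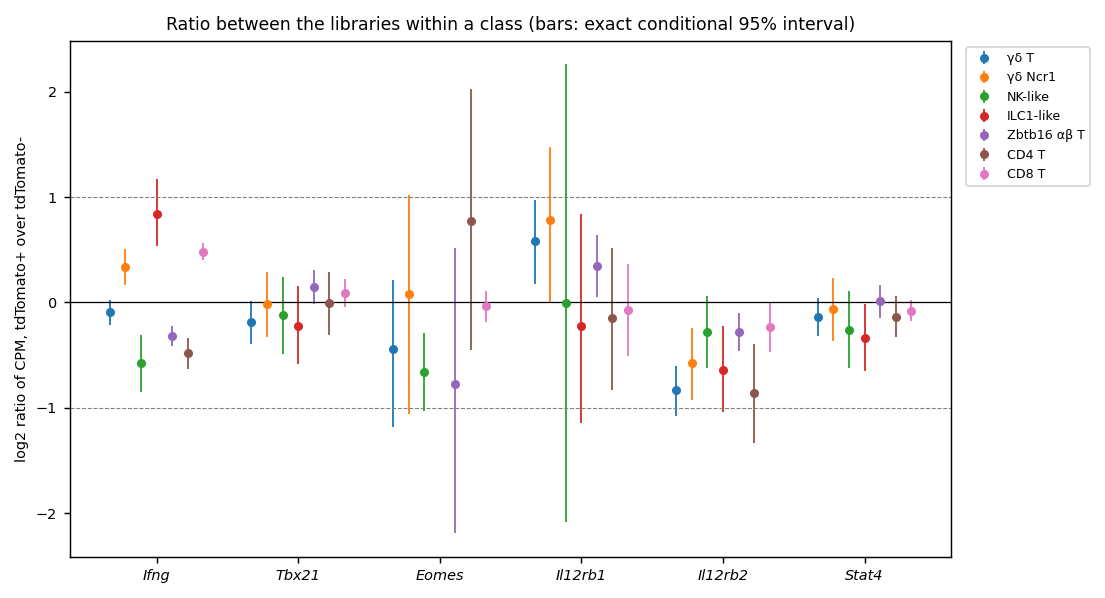
Log2 ratio of CPM, tdTomato+ over tdTomato-, of each of the 6 genes (groups on the horizontal axis) in 7 classes (colours), with exact conditional 95% intervals and dashed lines at 2-fold. *Il12rb2* lies below 0 in every class drawn, from -0.23 in CD8 T cells to -0.86 in CD4 T cells, whereas *Ifng* lies on both sides.

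T cells with a productive γδ receptor contig, whatever their *Trac* counts, could be split by Vγ segment. The 13 tdTomato+ TRGV1 cells had 303 CPM of *Ifng*, against 840 CPM over 641 tdTomato- TRGV1 cells. TRGV2 went the same way, with 297 CPM over 15 tdTomato+ cells, against 742 CPM over 287 tdTomato- cells. For TRGV4 the order was the other way round, and the level was 865 CPM over 19 tdTomato+ cells, against 596 CPM over 870 tdTomato- cells. The 78 TRGV6 cells of the tdTomato- library, a segment typical of interleukin-17 producers, had 319 CPM of *Ifng*, 62.7 CPM of *Il12rb2* and 71.9 CPM of *Il12rb1*, beside 840, 262 and 28.7 CPM in TRGV1 cells. The tdTomato+ library held only 2 TRGV6 cells.

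Genes around the members in the pathway were read from lists chosen with earlier results of these data known. Between the libraries, 1 of 12 genes of IL-12 and IL-18 signaling was higher in tdTomato+ γδ T cells, *Il18r1*, which encodes a chain of the IL-18 receptor (224 against 107 CPM). The median log2 ratio of that list was 0.10, and that of all 8668 tested genes was -0.01. None of the 11 tested other type 1 regulators, 7 tested fate regulators and 10 genes that T-bet binds was called. Within γδ *Ncr1* cells *Il18r1* stood at 23.05 CPM in the tdTomato+ and 21.44 CPM in the tdTomato- library, and 0 of the 12 genes of its list were called. The γδ subsets had unlike shares in the libraries, and their part in the *Il18r1* difference over all γδ T cells was not tested.

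Of the IFN-γ receptor and response list 3 of 14 tested genes were higher in tdTomato+ γδ T cells. They were *Iigp1*, an interferon-inducible GTPase (25.8 against 6.91 CPM), and the chemokine genes *Cxcl9* (16.9 against 3.98 CPM) and *Cxcl10* (215 against 29.4 CPM). The *Cxcl9* counts came from 2 cells, and 1 cell held 139 of the 216 counts of *Cxcl10*, which was at 77.6 CPM without it. Endothelial cells of the tdTomato+ library had 224 CPM of *Cxcl9* and 256 CPM of *Cxcl10*, and the part of their RNA in these values was not tested. The median of the list was 0.01.

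Between NK-like and ILC1-like cells, whose *Tbx21* levels were alike, the list of genes that T-bet is known to bind was split. In the tdTomato+ library 6 of 10 were higher in NK-like cells and 2 lower, and in the tdTomato- library 7 were higher and 2 lower. Over all tested genes 387 were higher and 663 lower of 8821 in the tdTomato+ library, and 305 and 743 of 9428 in the tdTomato- library. *Prf1* stood at 1493 against 197 CPM and 1550 against 196 CPM, and *Klrg1*, an inhibitory receptor of mature NK cells, at 321 against 10.3 CPM and 291 against 0 CPM. The lower pair in both libraries was *Cxcr3* (37.8 against 290 CPM and 20.1 against 232 CPM) and *Xcl1* (735 against 3987 CPM and 944 against 2338 CPM). The median log2 ratio was 1.26 and 1.69, against -0.04 and -0.19 over all tested genes.

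Among the other type 1 regulators *Zeb2*, which drives terminal NK maturation, was at 588 against 15.2 CPM and 539 against 30.9 CPM, and *Prdm1*, which encodes Blimp-1, at 93.5 against 21.2 CPM and 114 against 10.3 CPM. *Id2*, needed by all innate lymphoid cells, was lower in NK-like cells (988 against 1978 CPM and 760 against 1874 CPM), as was *Zfp683*, which encodes the residency factor Hobit, at 0 against 83.7 CPM and 3.35 against 67.0 CPM. Of the IL-12 signal genes *Jak2* and *Il27ra* were lower in NK-like cells of both libraries, *Jak2* at 44.5 against 173 CPM and 56.9 against 144 CPM. *Rora* was lower as well (60.1 against 376 CPM and 66.9 against 464 CPM), as was *Maf*.

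The cytokines that act on these receptors were read in myeloid cells and in B cells. *Il12b*, the subunit that IL-12 and IL-23 share, reached 11.8 and 19.0 CPM in tdTomato+ and tdTomato- macrophages and 28.0 and 8.38 CPM in dendritic cells, and no count was seen in γδ T or NK-like cells. *Il18* was at 184 and 127 CPM in macrophages, and *Il15*, which sustains NK cells and ILC1, at 141 and 123 CPM in macrophages and 50.2 CPM in tdTomato+ endothelial cells. *Il12a*, the subunit of IL-12 that IL-23 lacks, was higher in B cells, at 36.1 and 19.6 CPM, than in dendritic cells, at 4.39 and 8.78 CPM, and macrophages held 1 and 0 counts of it.

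Over 24 profiles, each 1 class with at least 10 cells in 1 library, *Tbx21* and *Il12rb2* followed each other most closely among the members (Pearson r of log2(CPM + 1) 0.86), followed by *Tbx21* and *Stat4* (0.80) and *Ifng* and *Il12rb2* (0.77). *Ifng* and *Tbx21* gave 0.71, and *Eomes* and *Il12rb1* gave -0.49. These profiles share libraries and some share cells, so the values are descriptions. Of 9384 genes compared, those most like *Ifng* were *Abcb1a* (0.94), *Vav3* (0.92) and *Gsap* (0.91), and *Slamf7* (0.94) and *Rgs3* (0.93) were among those most like *Tbx21*. *Il12rb2* was closest to *Xcl1* (0.94), *Samd3* (0.93) and *Ptpn12* (0.91), and *Stat4* to *Gimap5* (0.90), *Txk* (0.87) and *Hcst* (0.86). *Il12rb1* was closest to *Rbl2* (0.90), *Hk1* (0.90) and *Ptpn7* (0.89). *Eomes* had less similar neighbors, with *Gzmm* (0.84), *H2aj* (0.83) and *Sp100* (0.80).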

How the data were processed

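Liver CD45+ cells were profiled by droplet 5′ single-cell RNA sequencing. The submitters' processing notes name Cell Ranger and mm10, and the authors deposited UMI counts per gene and barcode, without normalization, beside tables of γδ receptor contigs. Genes were matched by symbol. Cells with at least 300 genes, at most 10% mitochondrial counts and at least 2000 UMIs (4000 for innate cells) were gated by marker counts, none of them a member's. Cells over 1000 CPM of endothelial, 500 CPM of B cell or 500 CPM of macrophage genes were left out, and no doublet caller was run. γδ T cells had at least 3 counts of *Cd3d*, *Cd3e* and *Cd3g*, at least 2 of *Trdc* and none of *Trac*. The limit of 1 dendritic count on innate cells was added after the levels had been seen, and the *Zbtb16* class was added after its markers had been seen.

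Counts were summed per class and library and scaled to CPM, with exact 95% Poisson intervals for levels, exact binomial intervals for shares and exact conditional intervals for ratios. PCR and cell-to-cell spread are not covered by them. Each sort had 1 library, so no test was made. The members and gene lists were chosen with earlier results of these data known. Named from the lists were genes at 10 CPM or more that differed at least 2-fold between the libraries in γδ T cells, or between NK-like and ILC1-like cells, and for each member the 3 genes with the highest Pearson r of log2(CPM + 1) over class profiles, among genes reaching 20 CPM. Some genes and classes gated by them are not reported here, though their cells entered the class profiles. List medians used counts with 0.5 added. The other gates, limits and weightings tried are described with their effects in the closing section. The scripts were tested on simulated data. Calculations ran in Python (3.11.15) with scipy (1.17.1) for intervals, pandas (2.3.3) and numpy (2.4.6) for tables, and matplotlib (3.10.9) for figures.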

Additional observations from a re-analysis of the deposited data

Results flagged for a closer look

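The difference in *Ifng* between the libraries ran in opposite directions in different classes. The log2 ratio of tdTomato+ over tdTomato- was 0.84 in ILC1-like cells and 0.48 in CD8 T cells, and it was -0.58 in NK-like cells and -0.48 in CD4 T cells. With 1 library per sort the difference between the classes was not tested.

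T cell barcodes that also carried endothelial RNA were not used in the comparisons. *Ifng* stood in them at 215.3 CPM over 3845 tdTomato+ barcodes and at 296.5 CPM over 72 tdTomato- barcodes, above B cells of both libraries (5.56 and 1.30 CPM).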

How the results depend on the processing

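Of 104 log2 ratios between the libraries recomputed under other settings, 85 moved by less than their interval, 17 moved further and 2 changed sign. Without the limit on endothelial RNA (246 tdTomato+ and 3629 tdTomato- γδ T cells), the γδ T cell ratios were -0.76 for *Ifng*, -0.63 for *Tbx21*, -0.29 for *Il12rb1*, which changed sign, -1.26 for *Il12rb2* and -0.56 for *Stat4*, and *Ifng* was -1.50 in CD4 and 0.043 in CD8 T cells. With doubled marker minimums *Ifng* changed sign in CD4 T cells (0.71, 58 and 92 cells), *Ifng* was 0.73 in CD8 T cells, and *Tbx21* and *Il12rb2* were -0.47 and -1.11 in γδ T cells. NKT-like cells then gave no value. The mean of the cells' own CPM gave 0.35 for *Ifng* in CD8 T cells. γδ T cells chosen by contig (55 and 2407 cells) gave -0.50 for *Ifng* and -0.45 for *Il12rb2*, and NKT-like cells chosen by *Zbtb16* and *Klrb1c* (16 and 20 cells) gave -0.92 for *Ifng*.

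Some alternatives were chosen after seeing the data. Any number of *Trac* counts in γδ T cells (156 and 6698 cells) gave -0.31 for *Ifng*. Without the cell with the most *Ifng* counts in each library the CD4 value was -0.15, and in γδ *Ncr1* cells alone *Ifng* and *Il12rb2* were 0.34 and -0.57. Leaving out shared barcodes, or dropping the dendritic limit, moved no ratio beyond its interval. The cause of these changes was not tested. Thinning to 2000 UMIs moved 63 of 72 shares of positive cells. No paired analysis was possible because each sort had 1 gene expression library. Precision was also limited by small classes, with 7 to 54 tdTomato+ cells in the γδ subsets, NKT-like and NK-like classes.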
